A study of Sus scrofa with 32 samples.

Results

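The ligands of the epidermal growth factor (EGF) family and the ERBB receptor tyrosine kinases were followed in the porcine endometrium on Day 14. The group comprised 10 of the 30185 genes counted, 6 ligands (EGF, AREG, HBEGF, EREG, TGFA and BTC) and 4 receptors (EGFR, ERBB2, ERBB3 and ERBB4), which were found by their pig symbols in the NCBI gene list of the count tables, and all 10 had a row. Samples came from 4 pregnant and 4 cyclic (nonpregnant) gilts. All were prepuberal animals synchronised with eCG and hCG, the pregnant gilts were inseminated with semen and the cyclic gilts with semen supernatant, and all were killed on Day 14. Stroma (S), blood vessels (BV) and the epithelium of the lumen (LE) and of the glands (GE) were cut from frozen sections by laser capture microdissection, and in pregnant gilts the tissue was taken from the hyperemic zones, where embryos attach, after the conceptus had been removed. Each library is 1 gilt and 1 compartment. Gilts carry their number in the labels, after C for cyclic or P for pregnant. A GE library of gilt P41 was not analysed here, which leaves n = 3 for pregnant GE and n = 4 for the other groups.

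EGF family ligands are made as membrane-anchored precursors, are released by metalloproteases and bind the extracellular part of an ERBB receptor. EGF, AREG and TGFA bind EGFR, whereas HBEGF, BTC and EREG bind EGFR and ERBB4. ERBB2 has no known soluble ligand and serves as the preferred partner of the other receptors, and ERBB3, a receptor for neuregulins with a weak kinase, depends on such a partner and couples to phosphoinositide 3-kinase. In the uterus of mammals the family is known for signalling between conceptus and epithelium around implantation.

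Library totals ranged from 2415216 to 7081556 counts. Levels are given as CPM, the counts scaled to library size, on 1 scale for all 31 libraries, after normalization by TMM (trimmed mean of M values), and levels of different genes were compared only as CPM per kb of exons. Epithelium markers summed to 1696 to 3482 CPM in LE and GE libraries and to 3.42 to 488 CPM in BV and S libraries. Smooth muscle markers summed to 1996 to 22688 CPM in BV and to at most 2207 CPM elsewhere. Fibroblast markers lay at 27396 to 107283 CPM in BV and S, but they also reached 17748 CPM in LE. In such bulk samples, fewer cells of a type and less RNA per cell cannot be told apart.

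The sequences 250 bases upstream of the RefSeq gene start are shown for 5 members that the results turn on, 5′ to 3′ in Sscrofa11.1, with capitals for letters that match a searched motif on either strand. ERBB3 and ERBB2 are the receptors with the clearest differences between pregnant and cyclic gilts, EGF is the ligand of LE, and EREG and AREG are neighbours on chromosome 8, 45405 bp apart, of which EREG was detectable in GE and AREG in no compartment.
ERBB3, chr5:21473968-21474217, plus strand: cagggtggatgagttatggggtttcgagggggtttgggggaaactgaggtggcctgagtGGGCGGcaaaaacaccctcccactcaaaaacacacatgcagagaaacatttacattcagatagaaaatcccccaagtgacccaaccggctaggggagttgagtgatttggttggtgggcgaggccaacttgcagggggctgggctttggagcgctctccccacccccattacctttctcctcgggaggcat
ERBB2, chr12:22621385-22621634, minus strand: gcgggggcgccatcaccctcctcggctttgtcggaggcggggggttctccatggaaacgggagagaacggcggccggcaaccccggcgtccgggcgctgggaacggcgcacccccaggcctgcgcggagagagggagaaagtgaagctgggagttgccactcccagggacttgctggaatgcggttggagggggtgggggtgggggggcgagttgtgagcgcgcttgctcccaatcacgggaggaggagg
EGF, chr8:112330063-112330312, minus strand: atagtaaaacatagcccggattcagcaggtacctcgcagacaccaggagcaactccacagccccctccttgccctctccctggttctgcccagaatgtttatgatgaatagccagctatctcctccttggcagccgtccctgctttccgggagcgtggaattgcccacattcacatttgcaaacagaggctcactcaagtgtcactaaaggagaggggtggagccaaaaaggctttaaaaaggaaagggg
EREG, chr8:70351066-70351315, plus strand: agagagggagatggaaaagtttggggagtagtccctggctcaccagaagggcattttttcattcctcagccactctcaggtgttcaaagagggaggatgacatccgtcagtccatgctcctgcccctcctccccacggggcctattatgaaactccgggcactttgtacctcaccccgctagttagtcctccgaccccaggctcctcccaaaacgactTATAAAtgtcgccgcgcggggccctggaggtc
AREG, chr8:70417685-70417934, plus strand: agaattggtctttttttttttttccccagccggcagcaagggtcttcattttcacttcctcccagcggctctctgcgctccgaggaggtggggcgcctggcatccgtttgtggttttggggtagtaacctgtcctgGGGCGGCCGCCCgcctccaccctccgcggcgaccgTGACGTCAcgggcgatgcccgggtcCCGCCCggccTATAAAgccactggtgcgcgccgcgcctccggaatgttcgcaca
Both strands were searched for the AP-1 motif, spelled TGACTCA. The cyclic AMP response element (CRE) was searched as TGACGTCA. For the GC box, which SP1 binds, the letters were GGGCGG. Likewise, the TATA box was spelled TATAAA, and the palindromic estrogen response element was searched too, which none of the 10 members held. The searched motifs do not contain one another. ERBB3 had 1 GC box, starting at base −191 from the gene start, and EREG had 1 TATA box at −32. AREG had a CRE at −79, a TATA box at −44 and 3 GC boxes. ERBB2 and EGF had none of the motifs. Of 20653 promoters of the same length, 44.4% held a GC box, 10.4% a TATA box, 1.63% a CRE and 3.05% an AP-1 motif. These matches describe letters in a window only, and the base composition of the windows ranged from 52.4% GC in EGF to 83.6% in EGFR, against a median of 57.2% over all promoters.

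Detection differed between members and compartments. The authors' filter on low counts kept 8 members in GE, 7 in LE, 6 in S and 4 in BV. EGFR, ERBB2 and ERBB3 passed it in all 4 compartments and AREG in none. AREG, the ligand amphiregulin, had 0 to 4 counts per library, and in pregnant BV it had no count in any of the 4 libraries, where 3 counts over the group would equal 0.279 CPM. This left 25 of 40 pairs of a member and a compartment for the test between pregnant and cyclic gilts, and members outside it are given by their levels.

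**Figure D1:**
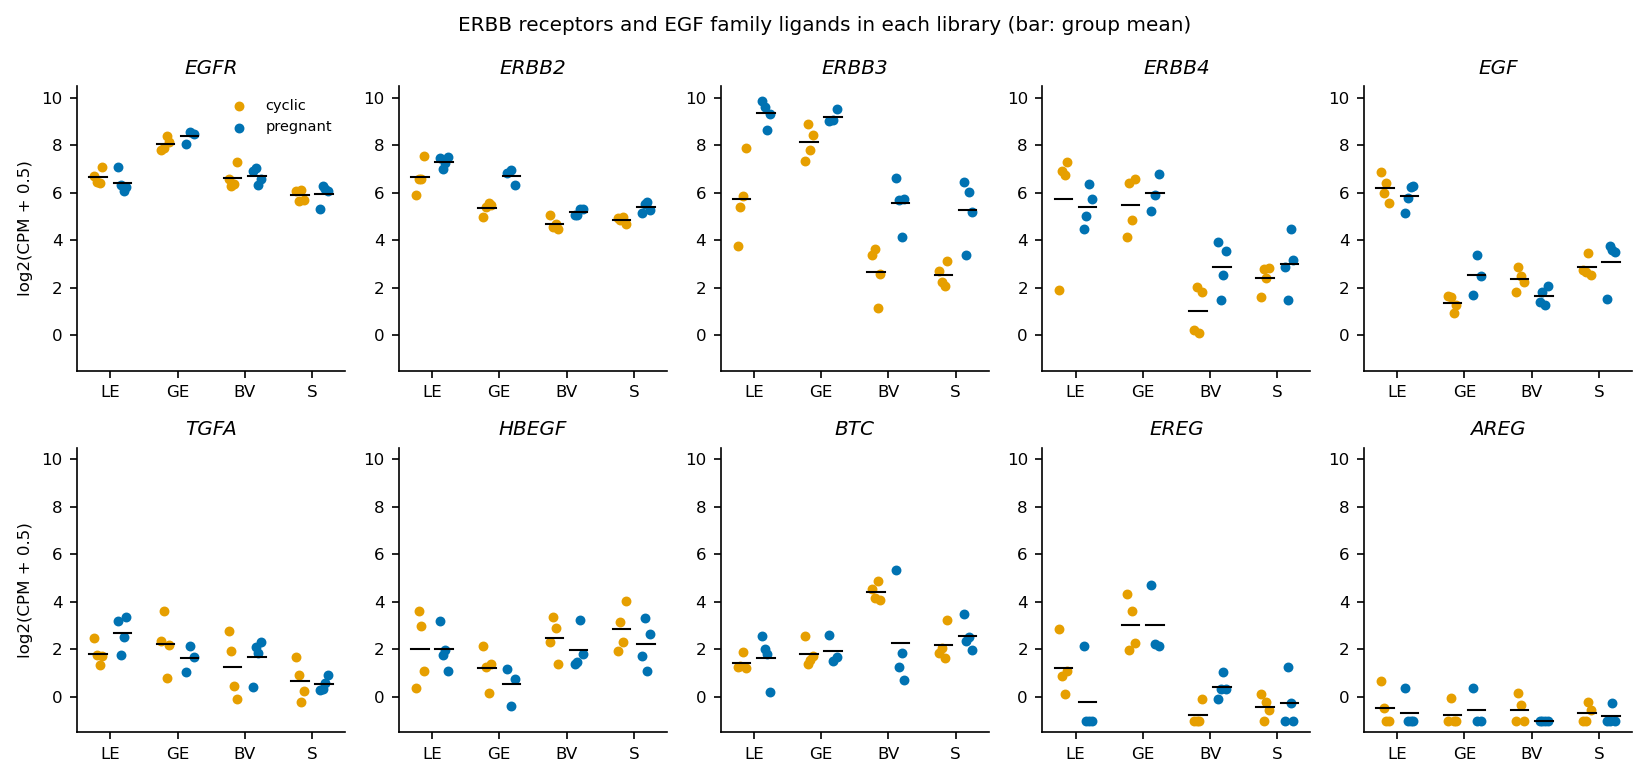
Level of each receptor and ligand in every library as log2(CPM + 0.5), by compartment, with cyclic gilts in orange, pregnant gilts in blue and group means of the log values as bars. ERBB3 of pregnant gilts lies above that of cyclic gilts in each compartment. EGF stands out in LE, EREG in GE and BTC in BV of cyclic gilts and of gilt P139, and AREG stays at or near 0.

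The receptors were most abundant in the epithelia. Summed over the 4 receptors, the level per length was 66.6 ± 37.1 CPM per kb in cyclic LE (SD, n = 4) and 178 ± 45.05 in pregnant LE, and it was 121 ± 28.6 in cyclic GE and 202 ± 28.4 in pregnant GE. In BV the sum was 27.3 CPM per kb in cyclic and 39.3 in pregnant gilts, and in S 19.2 and 30.9. The make-up of this sum differed as well. In cyclic LE, EGFR held 35.8 ± 15.8% of the receptor level, ERBB2 34.3 ± 1.86%, ERBB3 18.6 ± 12.2% and ERBB4 11.2 ± 7.67%. In pregnant LE, ERBB3 held 68.5 ± 7.43%, ERBB2 19.1 ± 5.09%, EGFR 9.90 ± 1.51% and ERBB4 2.53 ± 2.07%. The share of ERBB3 reached at most 35.4% in a cyclic LE library and was at least 58.8% in a pregnant one. In GE, EGFR and ERBB3 made up most of the sum in both statuses, with 46.1% and 43.4% in cyclic and 33.0% and 53.3% in pregnant gilts. EGFR held the largest mean share in BV, 74.2 ± 7.54% in cyclic and 54.6 ± 6.40% in pregnant gilts, and in S, 61.5 ± 3.59% and 41.8 ± 13.9%. In S of gilt P139, however, ERBB3 led with 50.5%, and EGFR held 25.1%. These shares are descriptions, with no test.

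**Figure D2:**
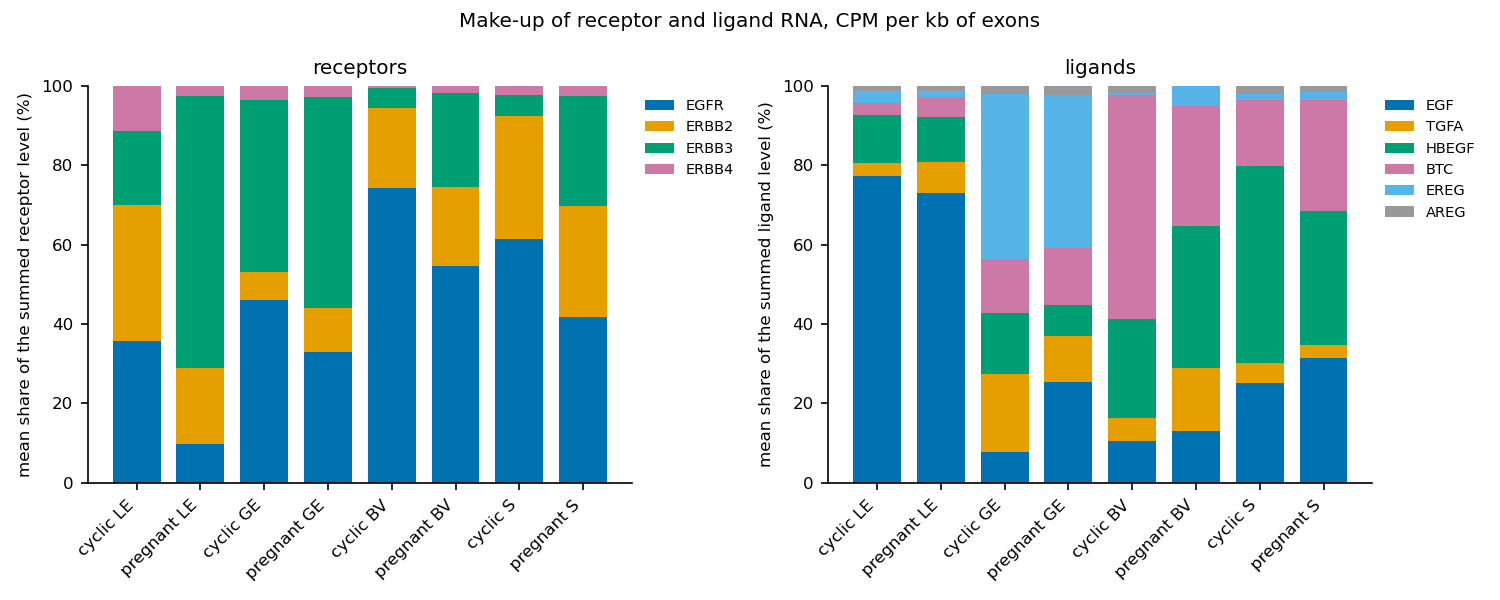
Mean share of each gene in the summed level of the 4 receptors (left) and of the 6 ligands (right), from CPM per kb of exons, for the 8 groups of status and compartment. In LE the ERBB3 share goes from 18.6% in cyclic to 68.5% in pregnant gilts, while EGF holds 77.3% and 73.0% of the ligand level there.

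ERBB3 (gene 100525045, chr5:21474218-21495040) had the largest fold changes among the receptors tested, in LE, BV and S. In LE its level was 12.9 CPM in cyclic gilt C128, 41.7 in gilt C40, 58.5 in gilt C42 and 237 in gilt C78. In the pregnant gilts it was 934 CPM in gilt P139, 777 in gilt P39, 403 in gilt P41 and 643 in gilt P43. The groups did not overlap, although cyclic gilt C78 stood above the other cyclic libraries. The fold change was 2.96 on the log2 scale (SE 0.79), with an adjusted p of 0.0439 by edgeR's quasi-likelihood test. It missed the criterion of the study's methods. That criterion takes genes at 1% false discovery in LE, and then uses the highest unadjusted p among them, here 0.000328, as the cut-off for GE, BV and S. Of all genes tested in LE, 3.32% met it. The robust GLM of edgeR, the test named in the methods, called ERBB3 in LE at a log2 fold change of 3.82 (SE 0.55), where it called 11.8% of all genes, and DESeq2 called it at 2.97 (SE 0.70), where it called 11.2%. Without cyclic gilt C78 the log2 fold change was 4.23, with an adjusted p of 0.00346 and a call by the quasi-likelihood test, and without any other gilt it lay between 2.60 and 3.16 with no call. The epithelium marker sum of LE was 3021 to 3482 CPM in cyclic and 2467 to 2758 CPM in pregnant gilts. Its members did not move together. KRT7 and KRT8 were called lower in pregnant LE, at log2 fold changes of −2.73 and −1.60, and KRT18 and KRT19 were at −1.46 and −3.45 without a call. CDH1, the epithelial cadherin, was 764 to 977 CPM in cyclic and 1139 to 1197 CPM in pregnant LE, without overlap, at 0.46 (SE 0.16, adjusted p = 0.0939). The part of these marker differences in the ERBB3 levels of LE was not tested. The conceptus markers CYP17A1, CYP19A3, IL1B2 and CDX2 had no count in pregnant LE, and the 9 markers matched of that list summed to 18.2 to 38.0 CPM there and to 5.94 to 25.5 CPM in cyclic LE.

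In GE, ERBB3 was 162, 471, 226 and 347 CPM in the 4 cyclic libraries and 525, 535 and 740 CPM in the 3 pregnant ones, again without overlap. The log2 fold change was 0.98 (SE 0.36, adjusted p = 0.16), and no test called it. The epithelium marker sum of GE spanned 1740 to 2063 CPM in cyclic and 1696 to 1923 CPM in pregnant gilts, and the 10 markers had a median log2 fold change of 0.10. CDH1 alone was 303 to 437 CPM in cyclic and 519 to 636 CPM in pregnant GE, without overlap. Its log2 fold change was 0.69 (SE 0.19, adjusted p = 0.0952 by the quasi-likelihood test), and only DESeq2 called it. The part of these marker differences in the ERBB3 and ERBB2 levels of GE was not tested. The difference of the pregnancy effect between LE and GE was 2.34 on the log2 scale (SE 0.88), with an adjusted p of 0.159 in the joint fit with the gilt as a block, and was thus not called.

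In BV, ERBB3 was 9.80, 11.7, 1.71 and 5.55 CPM in cyclic gilts C128, C40, C42 and C78, and 99.5, 51.8, 16.9 and 52.9 CPM in pregnant gilts P139, P39, P41 and P43. The log2 fold change was 2.94 (SE 0.60, adjusted p = 0.0222), with an unadjusted p of 0.000687 that missed the limit, whereas the robust GLM and DESeq2 called it. Without pregnant gilt P41 the unadjusted p was 0.000157 and ERBB3 was called. The groups did not overlap in this gene, nor in the epithelium marker sum of the same libraries, which was 3.42 to 53.9 CPM in cyclic and 175 to 348 CPM in pregnant BV. Of the 10 epithelium markers, none was at 0 over a group and 7 were tested in BV. The quasi-likelihood test called 2 of them higher, CDH1 at a log2 fold change of 3.77 and CLDN3 at 3.34, against 1.86% of all genes. It did not call EPCAM, at 3.18 (adjusted p = 0.0289). The robust GLM also called EPCAM, CLDN4 and ESRP1 higher, and DESeq2 called EPCAM and ESRP1. By the quasi-likelihood test all 7 had an unadjusted p under 0.05, against 28.5% of all genes. Their median log2 fold change was 3.18. In S, ERBB3 was 6.02, 4.23, 3.66 and 8.26 CPM in the cyclic libraries and 87.9, 9.92, 65.2 and 35.6 CPM in the pregnant ones. The log2 fold change was 3.13 (SE 0.59, adjusted p = 0.109), called by the robust GLM and DESeq2 but not by the quasi-likelihood test, except without pregnant gilt P39, where its log2 fold change was 3.46 (unadjusted p = 8.14e-06). The epithelium marker sum of S was 193, 15.5, 12.1 and 177 CPM in the cyclic libraries and 294, 40.4, 488 and 113 CPM in the pregnant ones, so there the groups overlapped. CDH1 alone was 23.1, 2.25, 1.10 and 39.2 CPM in the cyclic and 127, 11.06, 151 and 44.5 CPM in the pregnant S libraries, which overlapped too but in another order. The part of epithelial RNA in the ERBB3 differences of BV and S was not tested.

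**Figure D3:**
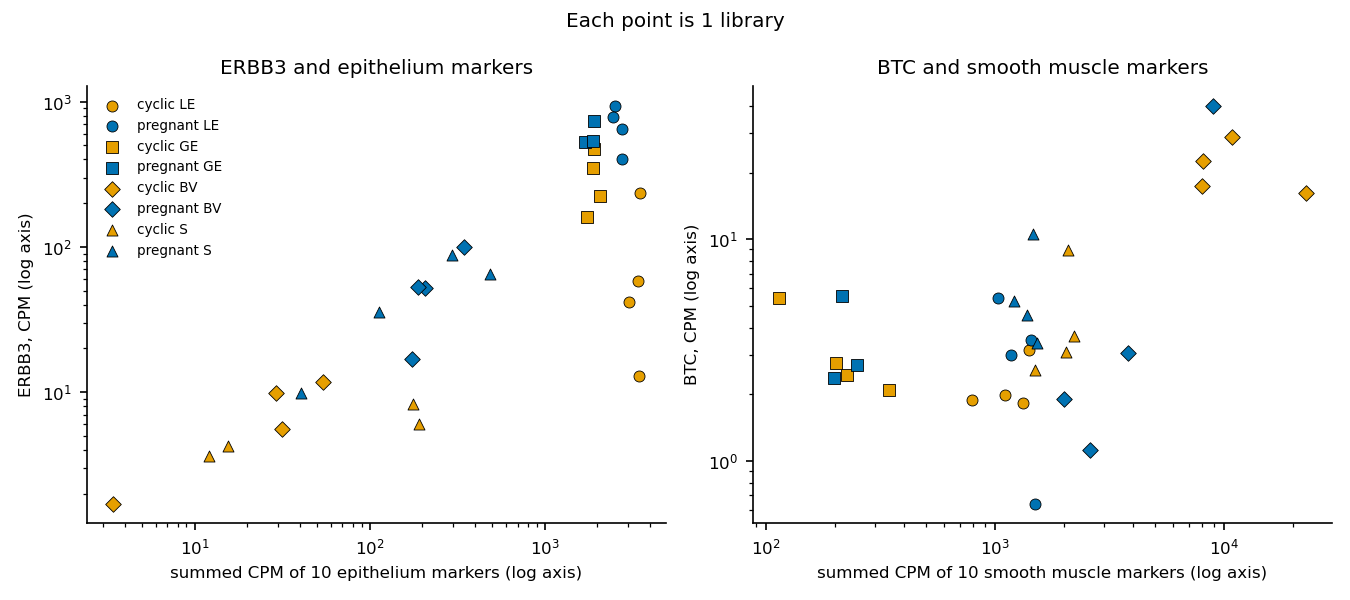
Left, ERBB3 CPM against the summed CPM of 10 epithelium markers, and right, BTC CPM against the summed CPM of 10 smooth muscle markers, with 1 point per library on log axes. In BV the groups are separate on both axes of the left panel, in S the epithelium sums overlap, in LE the pregnant libraries lie higher in ERBB3 and lower in the epithelium sum, to which the keratins contribute, whereas CDH1 alone was higher there (1139 to 1197 against 764 to 977 CPM), and in BV the 3 pregnant libraries lowest in BTC have 1996 to 3788 CPM of smooth muscle markers.

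ERBB2 (gene 100516641, chr12:22591621-22621384), the receptor without a known ligand, met the criterion in GE, and by the quasi-likelihood test no other member met it in any compartment. Its GE level was 31.0, 41.9, 46.9 and 44.3 CPM in cyclic gilts C128, C40, C42 and C78, and 115, 123 and 80.4 CPM in pregnant gilts P139, P39 and P43. The lowest pregnant library thus exceeded the highest cyclic one. ERBB2 was 2.56-fold higher in pregnant GE, a log2 fold change of 1.36 (SE 0.21, adjusted p = 0.0394, unadjusted p = 0.000198), in a compartment where 0.748% of all genes were called. The robust GLM and DESeq2 called it too, at 6.66% and 6.64% of all genes. The call was lost without cyclic gilt C40 (unadjusted p = 0.000891), C42 (0.000546) or C78 (0.000805) and without pregnant gilt P139 (0.00103) or P39 (0.00123), whereas the log2 fold change stayed between 1.24 and 1.52. In S, ERBB2 was 25.3 to 31.5 CPM in cyclic and 34.8 to 49.0 CPM in pregnant gilts, without overlap, at a log2 fold change of 0.54 (SE 0.16, adjusted p = 0.197). In BV it was 21.8 to 32.8 CPM against 32.7 to 39.3 CPM, with a slight overlap, at 0.49 (SE 0.17, adjusted p = 0.0968). In LE, where ERBB2 was most abundant, cyclic libraries had 59.2, 96.6, 96.3 and 188 CPM and pregnant ones 178, 127, 150 and 183 CPM, so they overlapped, and the log2 fold change was 0.54 (SE 0.34, adjusted p = 0.345). No difference of the ERBB2 effect between a pair of compartments was called, the largest being 0.95 for GE minus BV (SE 0.37, adjusted p = 0.203).

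EGFR (gene 397070), the receptor for EGF itself, showed no call in any compartment. Its level was 226, 236, 332 and 285 CPM in cyclic GE and 264, 381 and 361 CPM in pregnant GE, where it was highest. The log2 fold change was 0.30 in GE (SE 0.21), −0.19 in LE (SE 0.27), 0.10 in S (SE 0.22) and 0.06 in BV (SE 0.25), with adjusted p of 0.426 to 0.898. Over both statuses, EGFR in GE exceeded LE by 1.63 (SE 0.18), BV by 1.51 (SE 0.18) and S by 2.25 (SE 0.19) on the log2 scale, and each of these differences in level was called. LE and BV did not differ beyond their spread in EGFR, at −0.12 (SE 0.17, adjusted p = 0.582). An uncharacterised RNA gene lies on the opposite strand of EGFR, and whether the counting used the strand is not given in the sources used here.

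ERBB4 (gene 100525789), which overlaps a pseudogene on its own strand and may share reads with it, was a receptor of the epithelia with a wide spread. In LE it was 3.23 CPM in cyclic gilt C128, from 12 counts, and 122, 108 and 158 CPM in the other cyclic gilts. Pregnant LE had 22.0, 32.3, 83.2 and 53.7 CPM. The pregnant libraries lay below all cyclic ones except that of gilt C128, and the log2 fold change was −1.04 (SE 0.82, adjusted p = 0.459). In GE the log2 fold change was 0.29 (SE 0.62), and in S 0.97 (SE 0.60), neither called. In BV, ERBB4 was below the filter, with 0.571 to 3.61 CPM in cyclic and 2.28 to 14.9 CPM in pregnant gilts. The pregnancy effect differed between LE and BV by −3.10 on the log2 scale (SE 0.92, adjusted p = 0.0426) in the joint fit, where 7.41% of all genes were called in this contrast. Without the replicate block for the gilt, this call was lost, and of the fits that left out 1 gilt only those without cyclic gilt C128 and without pregnant gilt P41 kept it.

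**Figure D4:**
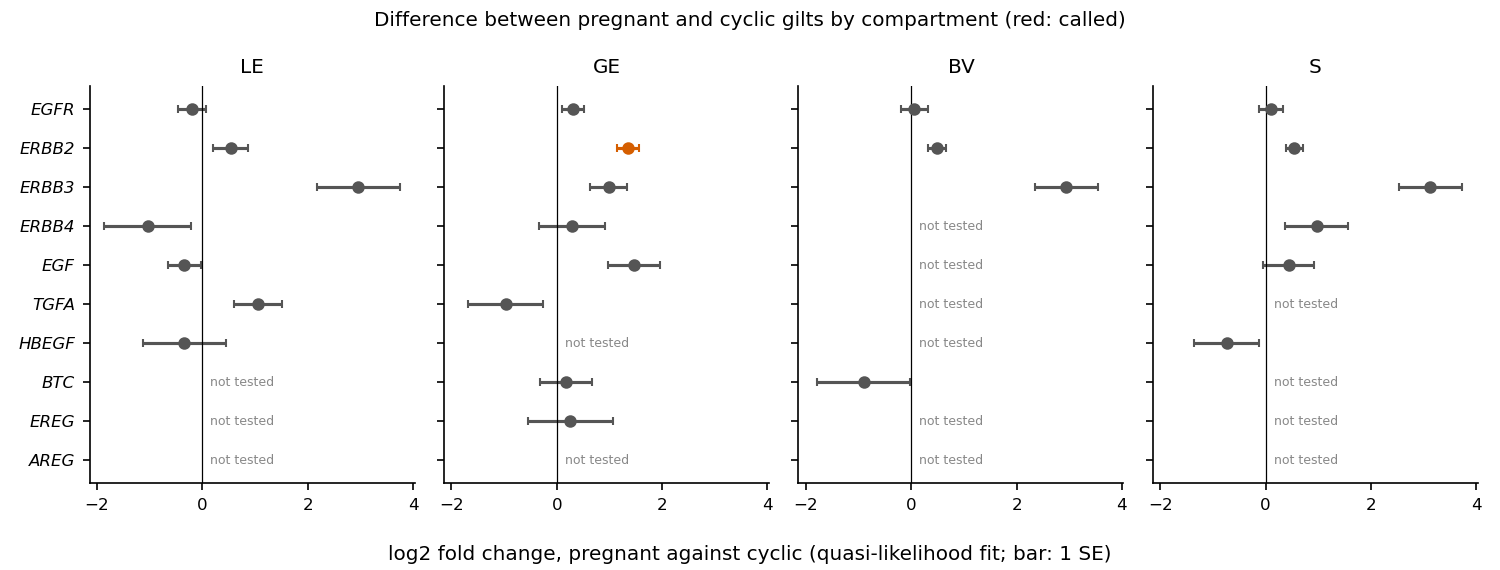
Log2 fold change of pregnant against cyclic gilts with 1 SE from the quasi-likelihood fit, for each receptor and ligand in each compartment, with the called one in red. Among the 25 values ERBB2 in GE, at 1.36, is the called one, and ERBB3 lies at 2.96 in LE, 2.94 in BV and 3.13 in S.

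The ligands were less abundant than the receptors. Their summed level per length was 17.4 CPM per kb in cyclic and 14.3 in pregnant LE, and 5.07 to 8.24 CPM per kb in the other groups. EGF (gene 397083, chr8:112235607-112330062) was the ligand of LE, with 77.3 ± 8.21% of the ligand level in cyclic and 73.0 ± 18.7% in pregnant gilts. Its LE level was 116, 63.0, 84.6 and 47.3 CPM in cyclic gilts C128, C40, C42 and C78 and 34.9, 54.999, 74.5 and 77.9 CPM in pregnant gilts P139, P39, P41 and P43. The groups overlapped, with a log2 fold change of −0.34 (SE 0.31, adjusted p = 0.521). Over both statuses EGF in LE exceeded GE by 4.24 (SE 0.25, adjusted p = 1.04e-10), BV by 4.22 (SE 0.24) and S by 3.13 (SE 0.22) on the log2 scale. In GE, EGF was 2.61, 2.55, 1.42 and 1.92 CPM in cyclic and 2.77, 10.01 and 5.10 CPM in pregnant libraries, from 7 to 38 counts. These groups did not overlap, but the lowest pregnant library, gilt P139, exceeded the highest cyclic one by little, and the log2 fold change of 1.46 (SE 0.50, adjusted p = 0.138) was not called. In BV, below the filter, EGF was 3.04 to 6.93 CPM in cyclic and 1.92 to 3.73 CPM in pregnant gilts, and in S it was 5.33 to 10.6 against 2.35 to 12.97 CPM.

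EGF was the only member whose pregnancy effect was called as different over the 4 compartments together (adjusted p = 0.0400), a contrast in which 6.23% of all genes were called. The effect in GE exceeded that in BV by 2.35 on the log2 scale (SE 0.57, adjusted p = 0.0473), where 1.02% of all genes were called, and the effect in LE was below that in GE by 1.81 (log2 difference −1.81, SE 0.48, adjusted p = 0.0399), where 3.67% were called. All calls of such differences in EGF were lost without the replicate block, and they were also lost without some gilts. Without cyclic gilt C40, C42 or C78, or without pregnant gilt P39 or P43, neither EGF nor ERBB4 was called in any pair of compartments.

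TGFA (gene 397484), a ligand of EGFR, had 5.11, 2.85, 2.01 and 2.74 CPM in cyclic LE and 8.53, 2.88, 5.17 and 9.65 CPM in pregnant LE. The groups overlapped through cyclic gilt C128 and pregnant gilt P39, and the log2 fold change of 1.06 (SE 0.46, adjusted p = 0.176) was not called. In GE it was −0.97 (SE 0.72, adjusted p = 0.453), with 1.22 to 11.6 CPM in cyclic and 1.58 to 3.95 CPM in pregnant libraries. The effect in LE minus that in GE was 1.91 (SE 0.75, adjusted p = 0.18). HBEGF (gene 397564), a ligand known as an early signal at implantation in rodents, held the largest ligand share in S, 49.6 ± 16.1% in cyclic and 33.6 ± 15.5% in pregnant gilts. Its level was 3.30 to 16.0 CPM in cyclic and 1.65 to 9.54 CPM in pregnant S, at a log2 fold change of −0.74 (SE 0.62, adjusted p = 0.628). In LE it was 0.807 to 11.6 CPM against 1.61 to 8.53 CPM, at −0.35 (SE 0.79). HBEGF in GE, where it did not pass the filter, was below S by 1.99 on the log2 scale (log2 difference −1.99, SE 0.64, adjusted p = 0.00927).

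BTC (gene 100505411, chr8:70645721-70697538), the ligand betacellulin, was highest in BV in the cyclic gilts and in pregnant gilt P139. Its BV level was 22.6, 17.5, 28.8 and 16.2 CPM in cyclic gilts C128, C40, C42 and C78. In pregnant BV it was 39.95 CPM in gilt P139 and 1.90, 3.08 and 1.12 CPM in gilts P39, P41 and P43, from 5, 8 and 3 counts. Gilt P139 thus lay above all cyclic libraries and the other pregnant libraries below all of them. The log2 fold change was −0.90 (SE 0.88, adjusted p = 0.536). Without pregnant gilt P139 it was −3.36 (SE 0.39, adjusted p = 0.00700), and BTC was then called lower in pregnant BV. The robust GLM called it lower with all libraries, at −3.02 (SE 0.45), where it called 11% of all genes, and DESeq2 gave no p for BTC in BV. The smooth muscle marker sum was 8064, 8009, 10817 and 22688 CPM in cyclic BV of gilts C128, C40, C42 and C78, 8892 CPM in pregnant gilt P139, and 1996, 3788 and 2588 CPM in pregnant gilts P39, P41 and P43. All 10 smooth muscle markers were tested in BV and none was called by the quasi-likelihood test, whereas the robust GLM called 7 lower, and the 10 had a median log2 fold change of −1.49. The part of smooth muscle RNA in the BTC levels was not tested. Over both statuses BTC in BV exceeded LE by 2.20 (log2 difference of LE minus BV −2.20, SE 0.41), and GE by 1.90 (GE minus BV −1.90, SE 0.43). BTC did not pass the filter in LE or S. In pregnant gilts P39, P41 and P43 it was 3.52, 3.01 and 0.643 CPM in LE. In S of these gilts it was 4.58, 5.27 and 3.42 CPM, above their BV.

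EREG (gene 100620969), the ligand epiregulin, was mainly found in GE. It was 19.3, 3.47, 11.6 and 4.26 CPM in cyclic GE and 25.9, 4.21 and 3.90 CPM in pregnant GE, with the high values in cyclic gilts C128 and C42 and pregnant gilt P139. The log2 fold change was 0.25 (SE 0.81, adjusted p = 0.885), and without pregnant gilt P139 it was −1.23. EREG held 41.6 ± 23.5% of the ligand level in cyclic and 38.5 ± 22.4% in pregnant GE. It passed the filter in GE alone, so tests of its level between compartments are not given here, although the family count below includes them. In BV it had 0 to 1 count per cyclic and 1 to 4 per pregnant library, and in S 0 to 3 and 0 to 5. In LE, EREG was found in all 4 cyclic libraries, at 0.573 to 6.72 CPM, but in pregnant LE it had 15 counts in gilt P139 and 0 in the others.

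Across the family, the quasi-likelihood test called 1 of 8 members in GE, against 0.748% of all genes, and 0 of 7 in LE, 0 of 6 in S and 0 of 4 in BV, against 3.32%, 0.293% and 1.86%. At an unadjusted p under 0.05 there were 3 members in GE, against 23.0% of all genes, and 2 each in LE, S and BV, against 26.9%, 14.5% and 28.5%. The robust GLM called 2 members in BV and 1 in each other compartment, where it called 11% of all genes in BV, 3.16% in S, 6.66% in GE and 11.8% in LE. DESeq2 called 1 member per compartment, against 8.5% in BV, 2.6% in S, 6.64% in GE and 11.2% in LE. At a false discovery rate of 5% by the quasi-likelihood test, ERBB2 in GE and ERBB3 in LE and BV passed, against 1.86%, 10.7% and 8.63% of all genes, and no member in S, against 0.0335%. Groups did not overlap in 3 members in GE, 2 in S and 1 each in BV and LE, all higher in pregnant gilts. Non-overlap with higher values in pregnant gilts was found in 11.6% of all genes in GE, 3.62% in S, 8.68% in BV and 10.3% in LE, and in either direction in 22.9%, 8.81%, 18.2% and 19.4%. The median log2 fold change of the members tested was 0.49 in S, 0.28 in BV, 0.29 in GE and −0.19 in LE, where that of all genes lay between −0.01 and 0.00. Of 54 differences in level between compartments that were tested for the members over both statuses, 35 were called, 3 of them of EREG, which entered through GE alone, and 54.6% of such differences were called over all genes. For single pairs these backgrounds were 14.4% for BV minus S, 53.1% for LE minus GE, 60.9% for LE minus BV, 62.0% for LE minus S, 68.4% for GE minus BV and 68.9% for GE minus S.

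Genes with the most similar pattern over the 31 libraries were searched as a description among 12133 genes. For the 4 receptors, the closest gene by Pearson's r of log2 CPM was CHDH for ERBB3 (r = 0.962), VPS13C for ERBB2 (0.922), BACH1 for EGFR (0.917) and FAM167A for ERBB4 (0.907). The libraries behind these values share compartments, gilts and depth.

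The other genes of the pathway, 106 in 7 lists, were examined in the same fits. Among 30 adaptors and kinases, 4 (13.3%) were called in LE, all higher in pregnant gilts, where 3.32% of all genes were called. These were GAB1, a docking protein of activated receptors (85.2 ± 33.0 against 387 ± 24.2 CPM, log2 fold change 2.19, SE 0.28, adjusted p = 0.00289), and SOS2, an exchange factor for RAS (105 ± 16.5 against 339 ± 64.9 CPM, 1.70, SE 0.21, adjusted p = 0.0021). STAT5B, a transcription factor of cytokine and growth factor signalling (38.6 ± 6.39 against 87.5 ± 14.7 CPM, 1.19, SE 0.20, adjusted p = 0.00693), and PIK3R1, the regulatory subunit of phosphoinositide 3-kinase (248 ± 39.6 against 503 ± 57.6 CPM, 1.03, SE 0.18, adjusted p = 0.00871), were the others. The call of SOS2 was kept in 7 of 8 fits that left out 1 gilt, that of GAB1 in 5, and those of STAT5B and PIK3R1 in 1. The list had a median log2 fold change of 0.06 in LE, and none of its members was called by the quasi-likelihood test in GE, BV or S, where 26.7%, 24.1% and 17.2% of them had an unadjusted p under 0.05, against 23.0%, 28.5% and 14.5% of all genes.

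Of 10 partners of ligands and receptors, MUC1, a transmembrane mucin, was the 1 called in LE, from 142 ± 28.4 to 448 ± 83.6 CPM (log2 fold change 1.67, SE 0.22, adjusted p = 0.00289), a call kept in 6 of 8 fits without 1 gilt. MUC4, a membrane mucin that binds ERBB2, went from 77.1 ± 52.5 CPM in LE of cyclic gilts to 679 ± 225 CPM in that of pregnant gilts (3.14, SE 0.61, adjusted p = 0.013) and was not called. Other partners were lower in pregnant LE without a quasi-likelihood call. These were SDC1 at −1.66 (adjusted p = 0.0372), GPC1 at −1.60, CD9 at −0.95 and CD82 at −0.88, whereas CD44 was at 0.71. The robust GLM called GPC1 lower. Of the 10 partners, 7 (70%) had an unadjusted p under 0.05 in LE by the quasi-likelihood test, against 26.9% of all genes. In receptor traffic, CLTC, the heavy chain of clathrin, was the 1 of 12 genes called in BV, where 1.86% of all genes were called, and fell from 612 ± 38.4 to 367 ± 35.0 CPM (−0.73, SE 0.12, adjusted p = 0.0163), and the call was kept in 2 of 8 such fits. No gene was called by the quasi-likelihood test among the other ligands, the shedding proteases and their regulators, the negative regulators and the response genes in any compartment. In LE, 0, 1, 7 and 4 of their 2, 8, 22 and 13 tested genes had an unadjusted p under 0.05, that is 0%, 12.5%, 31.8% and 30.8% against 26.9% of all genes, and the robust GLM called 0, 0, 2 and 3 of them, against 11.8% of all genes. Of the neuregulins, ligands of ERBB3 and ERBB4, NRG1 was highest in S, at 123 ± 54.0 CPM in cyclic and 86.7 ± 46.5 CPM in pregnant gilts, and had 26.2 ± 13.2 and 30.4 ± 4.09 CPM in LE. Among the negative regulators ERRFI1, an inhibitor of ERBB kinases, had 21.1 ± 3.93 CPM in GE of cyclic gilts against 54.5 ± 16.4 CPM in pregnant ones, at 1.36 (SE 0.25, adjusted p = 0.0451), and it was not called. MUC4, NRG1 and ERRFI1 were chosen for naming after their values were seen.

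**Figure D5:**
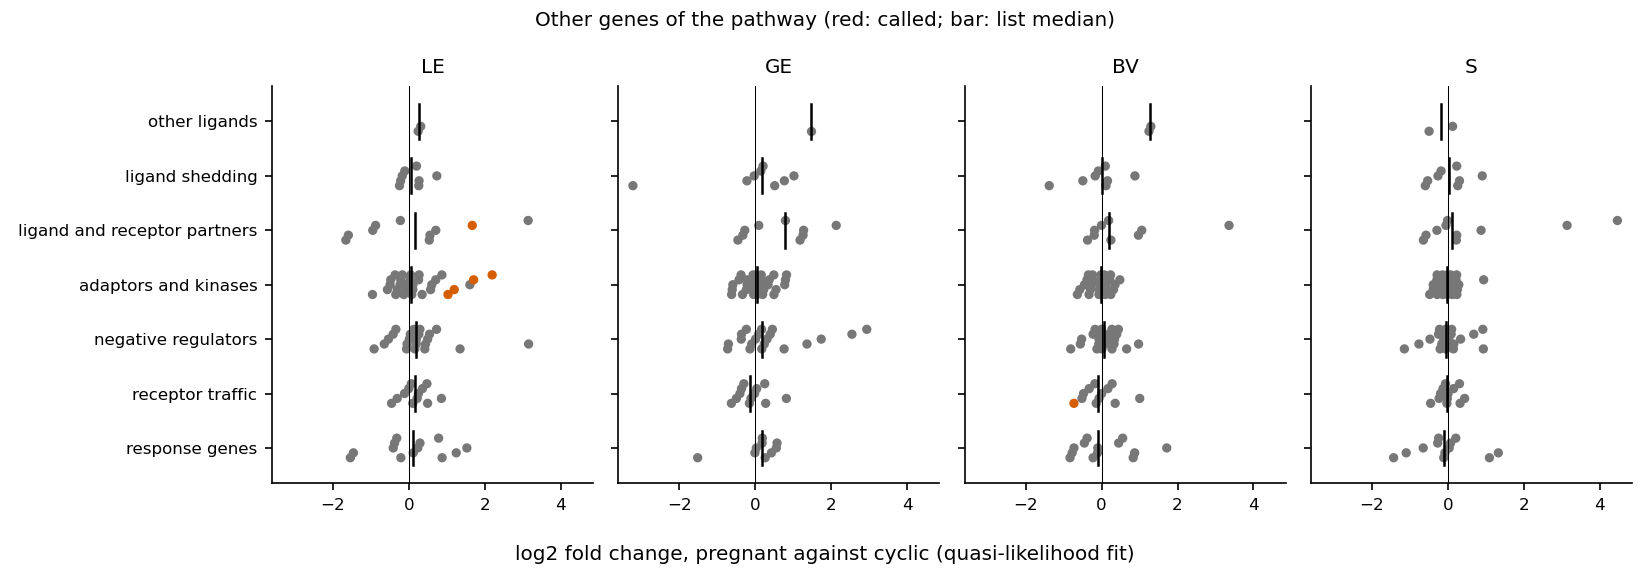
Log2 fold change of pregnant against cyclic gilts for the genes of 7 lists of the pathway in each compartment, with called genes in red and list medians as bars. The 4 called adaptors and kinases of LE lie between 1.03 and 2.19, and the medians of this list lie near 0 in each compartment.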

How the data were processed

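Total RNA of laser-captured LE, GE, BV and S was sequenced from 8 gilts, and 31 libraries were analysed here. The deposited values are raw read counts per NCBI gene, 1 column per library. Per the study's methods the authors trimmed reads with Trim Galore, mapped them with Hisat2 to Sscrofa11.1, removed duplicates with nudup and counted with QuasR; versions, the CPM cut-off of their filter and the use of strand are not given in the sources used here. Counts of the genes that the authors' filter kept were tested within each compartment by edgeR 4.0.16 (R 4.3.3; quasi-likelihood, TMM). Differences between compartments came from 1 joint fit of 13887 genes with the gilt as a block, since the labels give the same gilt numbers in each compartment; 5% false discovery was allowed there. The study's robust GLM and DESeq2 1.42.0 were alternatives. CPM used the joint TMM scale, and SE of the quasi-likelihood fits is the size of the log2 fold change over the root of F. For the robust GLM it is that size over the root of the likelihood ratio statistic, and DESeq2 gives its own SE. P-values within a compartment measure the spread between gilts. Those of the joint fit, where the block takes out each gilt's level, measure how differences between compartments varied from gilt to gilt. The fits were tested on simulated data. Members and lists were chosen with earlier results of these data known. All members are named, as are called genes of the lists, up to 4 per list and compartment. Exonic length and the promoters came from the NCBI annotation of Sscrofa11.1.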

Additional observations from a re-analysis of the deposited data

Results flagged for a closer look

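Of 69 groups of 4 libraries, 10 held a library that stood apart by Dixon's test, where chance gives about 1 in 20 groups (3.45). That rate assumes normally distributed values, which low counts are not. Where a single library of a group has counts, it is flagged by arithmetic, so the 10 cannot be read against the 3.45. In pregnant BV, BTC was 39.95 CPM in gilt P139 against 3.08 CPM in the next library, and HBEGF was 8.85 CPM in gilt P41 against 2.98. EREG was 6.72 CPM in LE of cyclic gilt C128 against 1.60, and 3.88 CPM, from 15 counts, in LE of pregnant gilt P139 against 0. BTC was 3.15 CPM in LE of cyclic gilt C42 against 1.98, and EGF was 10.6 CPM in S of cyclic gilt C42 against 6.22. The remaining 4 rest on 1 to 3 counts where the others had 0, namely AREG in GE of cyclic gilt C40 (0.463 CPM), in LE of pregnant gilt P139 (0.775 CPM) and in S of pregnant gilt P41 (0.329 CPM), and EREG in BV of cyclic gilt C78 (0.427 CPM).

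The pregnancy effect on EGF differed over the compartments (adjusted p = 0.0400 by edgeR's quasi-likelihood test of the interaction), by 2.35 on the log2 scale for GE minus BV and by −1.81 for LE minus GE. That on ERBB4 differed by −3.10 for LE minus BV.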

How the results depend on the processing

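Of 417 values of the members' log2 fold changes under an alternative, 377 kept their direction and their side of the threshold. A further 21 passed it anew, 7 lost it and 12 changed sign. The cause of these changes was not tested. All 390 levels per length stayed within the SD between gilts. For levels without 1 gilt this was fixed by arithmetic. In groups of this size, leaving out 1 library moves a mean by no more than the SD. No sign change was in a called value: BTC in GE was −0.51 with thinned counts and ranged from −0.32 to 0.54 without 1 gilt, the lowest without gilt P139. EGFR in BV was −0.057, −0.04 and −0.059 without gilt C40, C42 and P39, in a range of −0.059 to 0.34, and ERBB4 in GE was −0.02 without gilt C128, in a range of −0.22 to 0.66, the lowest without gilt P43. EREG in GE was −0.39 by the robust GLM, −0.0035 in the exact permutation test on log2(CPM + 0.5), and −0.02 without gilt C40, in a range of −1.23 without gilt P139 to 0.82, and HBEGF in LE ranged from −0.99 to 0.38, the highest without gilt C40. The number of members called in LE, 0, became 1 with DESeq2, the robust GLM or a false discovery rate of 5%, and ranged from 0 to 1 without 1 gilt. In GE it was 1 and became 0 with library totals only or thinned counts, with 0 to 1 without 1 gilt. In BV it was 0 and became 1 with DESeq2, a false discovery rate of 5% or no filter and 2 with the robust GLM, with 0 to 1 without 1 gilt. In S it was 0 and became 1 with DESeq2, the robust GLM, no filter or thinned counts, with 0 to 1 without 1 gilt. Members whose effect differed in a pair of compartments numbered 2, and 0 without the replicate block or at a false discovery rate of 1%, with 0 to 3 without 1 gilt, the highest without gilt P139. Over all compartments together the 1 member became 0 in these settings and with no filter, and ranged from 0 to 3 without 1 gilt. The differences in level went from 35 called to 34 without the replicate block, and 14 were called where only the genes detectable in all 4 compartments entered. That setting leaves 3 members, EGFR, ERBB2 and ERBB3, and called none of them for differing pregnancy effects. EGF and ERBB4 were not tested there, so they could not be called. AREG, with at most 4 counts per library, could not be compared at this depth.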

Other observations

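GRB7, an adaptor that binds activated ERBB2, lies 8235 bp from ERBB2 and was chosen after its values were seen. Its log2 fold change between pregnant and cyclic gilts was 2.44 in LE (adjusted p = 0.0629), 2.11 in GE (0.0556), 3.77 in BV (0.0164) and 4.06 in S (0.118) by edgeR's quasi-likelihood test. At 5% false discovery GRB7 passed in BV, where 8.63% of all genes did. MIEN1, closer to ERBB2 at 1709 bp, was at 0.61 (LE), −0.05 (GE) and −0.01 (S), with no value for BV. PGAP3, at 9007 bp on the other side, was at 0.02 (LE), −0.48 (GE) and 0.29 (S), and likewise lacked a BV value. STARD3, beyond PGAP3 at 33536 bp, was at 0.25 (LE), 0.26 (GE), 1.09 (BV, adjusted p = 0.0539) and 0.63 (S). The epithelium marker sum was 3.42 to 53.9 CPM in cyclic and 175 to 348 CPM in pregnant BV, and it overlapped in S. The part of epithelial RNA in the GRB7 differences was not tested.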
